A study of Drosophila melanogaster with 4 samples.

Results

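The cytoplasmic ribosomal protein genes of Drosophila melanogaster were followed in whole 3rd instar larvae labelled wildtype and in larvae labelled as homozygous for the mutant allele kr-h1[7]. Members were taken by name, as every locus whose RefSeq transcripts carry a symbol beginning with RpL, RpS or RpLP and a digit, plus sta (stubarista), the gene of a small-subunit protein. This gave 93 of 16198 loci, of which 54 encode large-subunit and 39 small-subunit proteins. The symbol pattern also takes 5 genes whose names end in -like, of which several are assembly factors in yeast rather than parts of the finished ribosome. Both groups were collected at 100 h after egg laying from cultures kept at 25 °C, and the labels name neither the wildtype strain nor the genetic background of the mutant. Each group had 2 libraries of polyadenylated RNA, read as paired ends on a MiSeq. The authors combined them into 1 value per gene and group, in FPKM (fragments relative to the length of the transcript and to the depth of the library), so no value below carries a replicate error, and the depth of the libraries is unknown.

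The ribosome makes all cellular protein, and its large subunit joins amino acids while its small subunit reads the messenger RNA. Each ribosome holds 1 copy of nearly every ribosomal protein, the acidic proteins RpLP1 and RpLP2 of the stalk being the exception, and cells therefore make these proteins in near-equal amounts. In flies the loss of 1 copy of many of these genes gives the Minute phenotype of slow development and short bristles. Kr-h1 encodes a zinc-finger protein that acts downstream of juvenile hormone, and the comparison asks which transcripts differ when it is mutated.

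The direction of each difference rests on the group labels. The mutated gene itself was listed at 2.98 FPKM in the wt-labelled and 9.79 FPKM in the kr-labelled group (3.28-fold higher, Cuffdiff q-value 0.000889 in the authors' deposited table), so its transcript was not lower under the mutant label. The groups are therefore named wt-labelled and kr-labelled, after the column labels of the deposited table. Markers of muscle, fat body, midgut, salivary gland, epidermis, haemocytes, neurons, imaginal discs and germline had values above 0. The exceptions were He and comr, listed at 0 in both groups, and vg in the kr-labelled group. The authors did not test 5 of the 7 neuron and 9 of the 11 germline markers. The highest of these, nSyb and vas, had 2.40 and 2.51 FPKM in wt-labelled larvae. In whole larvae fewer cells of a type and less RNA per cell cannot be told apart.

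Ribosomal protein transcripts were among the most abundant in the larvae. Of the 142 loci with a mean of at least 1000 FPKM over the 2 group values, 72 (50.7%) were ribosomal protein genes. Together the 93 loci made up 21.3% of the summed FPKM in wt-labelled and 23.6% in kr-labelled larvae. The large-subunit genes held 12.6% and 14.2%, and the small-subunit genes 8.69% and 9.38%. The sum over all members was 120715 FPKM in the wt-labelled and 128241 FPKM in the kr-labelled group, which is 6.23% more. RpL41, whose protein has only 25 residues, made up 23.5% of that gain, and without it the gain was 5.0%. The gain was 8.10% over the large-subunit and 3.52% over the small-subunit genes, and no test of these sums was possible.

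The levels of most members lay close together. In 80 loci the mean over the groups was at least 100 FPKM, and their median was 1473 FPKM in wt-labelled and 1510 FPKM in kr-labelled larvae. The middle 50% of these loci spanned 1204 to 1699 FPKM and 1254 to 1807 FPKM. In each group 70 of the 80 lay at 1000 to 2500 FPKM. Their rank order was similar in both groups (Spearman's rho 0.943 across 80 genes, which share their libraries). The median of the large-subunit genes among them was 1456 FPKM in wt-labelled and 1513 FPKM in kr-labelled larvae, and that of the small-subunit genes 1497 and 1506 FPKM.

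A few genes stood outside this band. RpL41 had the highest level, with 5587 FPKM in wt-labelled and 7357 FPKM in kr-labelled larvae. RpS29, a small zinc-binding protein of the small-subunit head, followed with 2555 and 2776 FPKM, and RpL10, a late-joining large-subunit protein near the catalytic centre, with 2402 and 2887 FPKM. RpS29 and RpL10 exchanged ranks between the groups. At the lower end of the abundant genes were RpL22 (577 and 502 FPKM), RpL34a (370.1 and 384 FPKM) and RpS14b (177 and 197 FPKM).

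**Figure D1:**
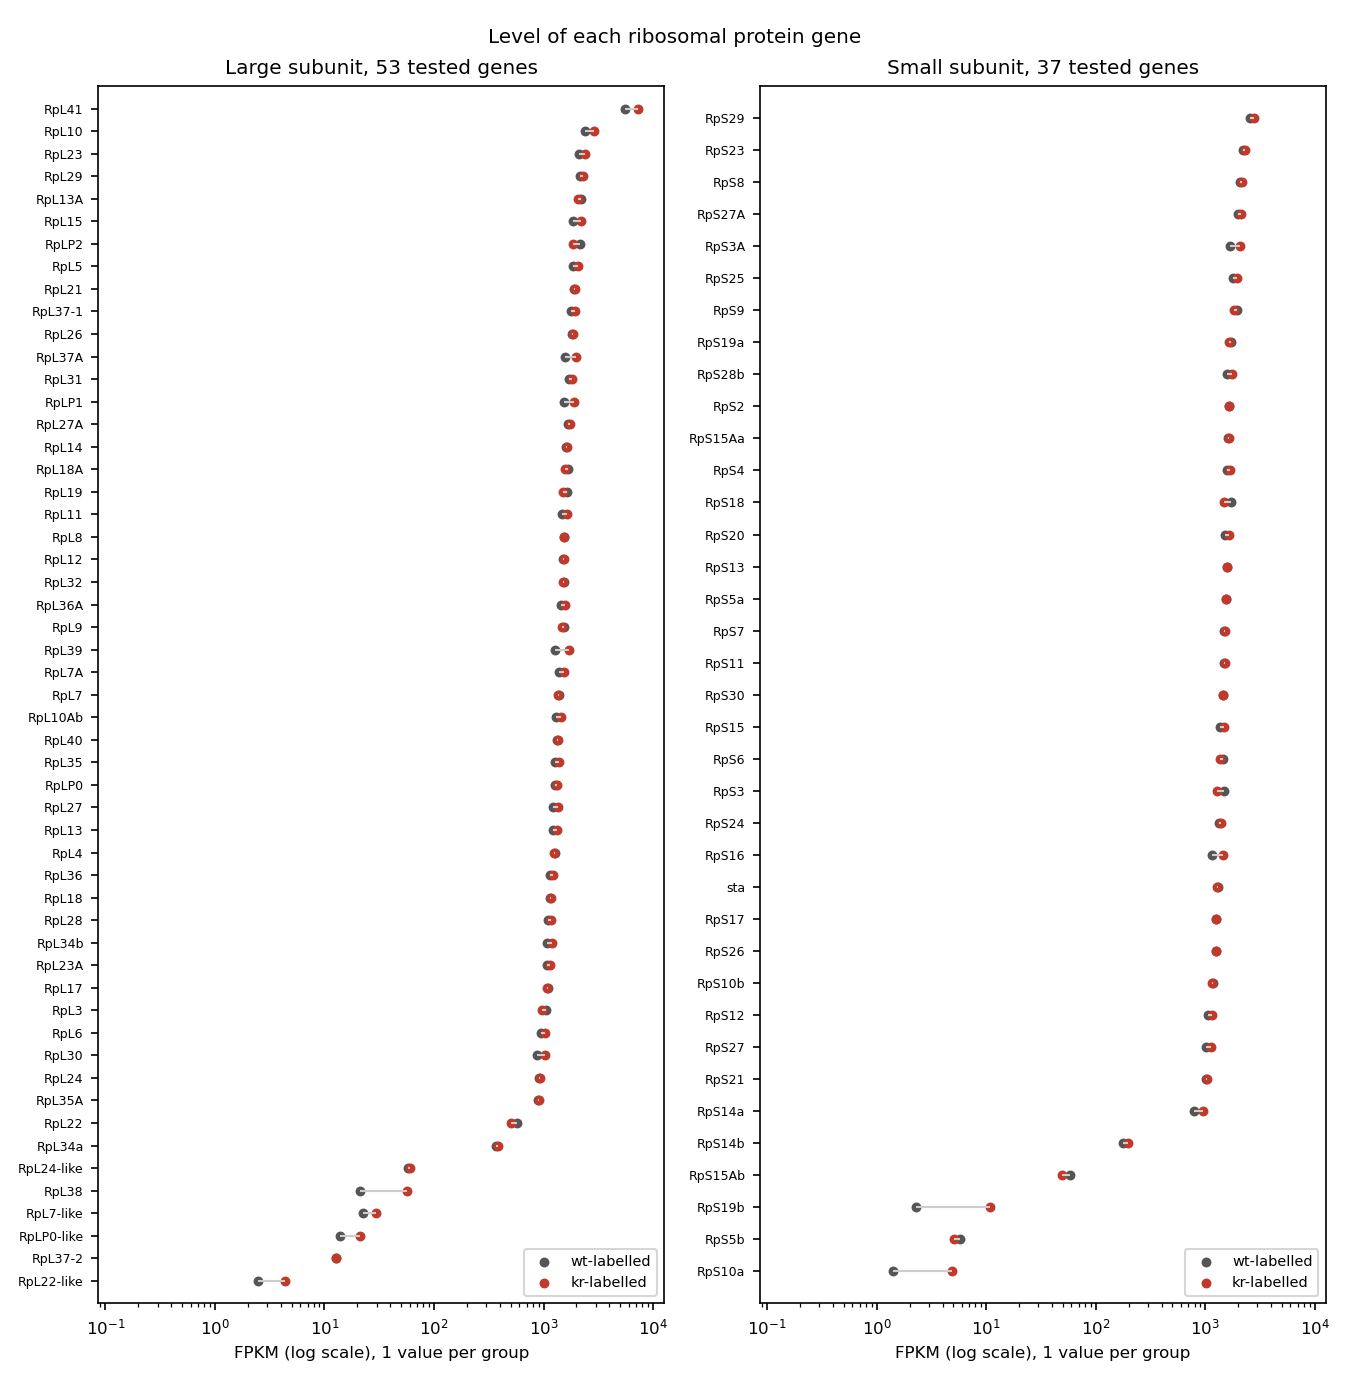
FPKM of each tested ribosomal protein gene on a log scale, for the large subunit (left, 53 genes) and small subunit (right, 37 genes). Grey points are wt-labelled and red points kr-labelled larvae, 1 value per group. Most genes lie between 1000 and 2500 FPKM in both groups, RpL41 lies above this band, and RpL38 and the minor paralogs other than RpL34a and RpS14b lie below 100 FPKM.

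The authors tested 90 of the 93 members, and RpL10Aa, RpS28a and RpS28-like, all listed at 0 in both groups, were not tested. A gene is called here where Cuffdiff's q-value in the deposited table is at most 0.05. Among the 90 tested members 27 rose in kr-labelled larvae and 5 fell, while 58 were not called. Of all 7058 tested loci 4.32% were called higher and 8.73% lower, so 30.0% of the members rose against 4.32% and 5.56% fell against 8.73%. Calls were more frequent among abundant genes. Of the 131 tested loci outside the members with at least 500 FPKM, 15.3% were called higher and 54.2% lower. The median log2 ratio, which is log2((kr-labelled FPKM + 1)/(wt-labelled FPKM + 1)), was 0.07 over the 90 members, -0.03 over all tested loci and -0.14 over those 131 abundant loci.

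The differences were small. The 27 higher genes had a median fold of 1.12 and a range of 1.06 (RpL23A) to 1.35 (RpL39), and 8 of them exceeded 1.2-fold. The 5 lower genes ranged from 1.09 to 1.17-fold. Among the 80 abundant members 56 differed by less than 1.1-fold between the groups, and none differed by more than 1.5-fold. All 32 called genes belonged to these 80.

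Higher calls outnumbered lower calls in both subunits. In the large subunit 17 of 53 tested genes rose (32.1%), 3 fell (5.66%) and 33 were not called, and in the small subunit 10 of 37 rose (27.0%), 2 fell (5.41%) and 25 were not called. The median log2 ratio was 0.09 for large-subunit and 0.04 for small-subunit genes. Of the tested genes, 42 of 53 and 26 of 37 had the higher value in kr-labelled larvae. These are 2 group values per gene, and the difference between the subunits was not tested.

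**Figure D2:**
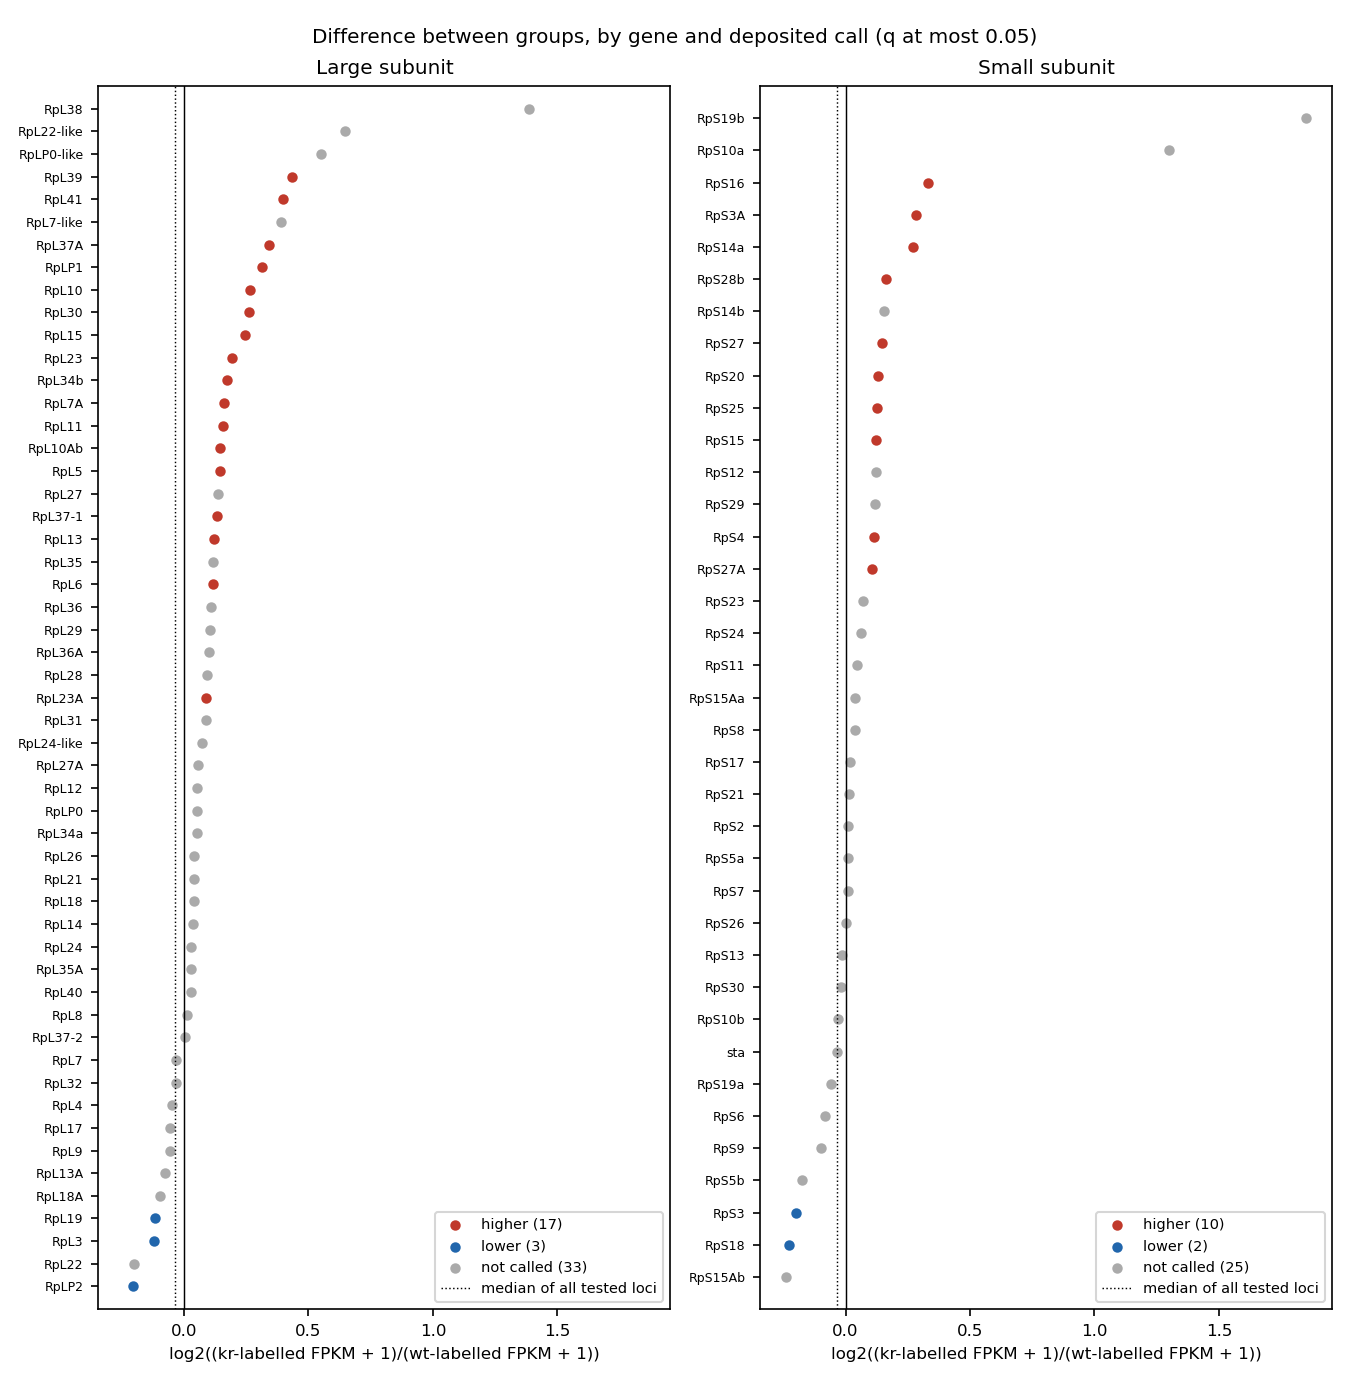
Log2 ratio of kr-labelled to wt-labelled FPKM, each with 1 added, for every tested gene of the large (left) and small (right) subunit, in order. Red and blue points were called higher or lower in the authors' deposited table, grey points were not called, and the dotted line is the median of all tested loci at -0.03. Called genes lie within 1.35-fold of no change, while the largest ratios, of RpS19b, RpL38 and RpS10a, were not called.

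Exonic length, counted over the merged exons of all annotated transcripts of a gene, moved with these ratios. For a gene with several transcripts it can exceed the length of each one. The median exonic length of the 93 members was 903 nucleotides, against 1868 over the tested loci, and across 7044 tested loci the ratio was lower in longer genes (Spearman's rho -0.131, a description across genes that share libraries). When the median ratio of tested loci of like length was subtracted, the median log2 ratio became 0.02 for the large and -0.0025 for the small subunit. On that scale 30 of 53 large-subunit and 18 of 37 small-subunit genes lay above 0. Of the 27 higher genes, 25 kept a positive ratio and RpL23 (-0.04) and RpS20 (-0.10) did not, and the 5 lower genes kept a negative one. The subtracted median changes in steps from 1 length bin to the next. RpS20, with 564 nucleotides, went from 0.13 to -0.10, while the uncalled RpS14b, with 597 nucleotides, went from 0.16 to 0.08. The signs of RpL23 and RpS20 thus depend on where the bins are cut. RpL5, a protein of 299 residues, has an exonic length of 3835 nucleotides by this count, and its log2 ratio went from 0.14 to 0.25. A row with several symbols was corrected at the length of its longest gene. For RpS27A, called higher, and RpS18, called lower, this was the partner in the row, so their corrected ratios depend on that choice. The part of length in the counts of calls was not tested.

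**Figure D3:**
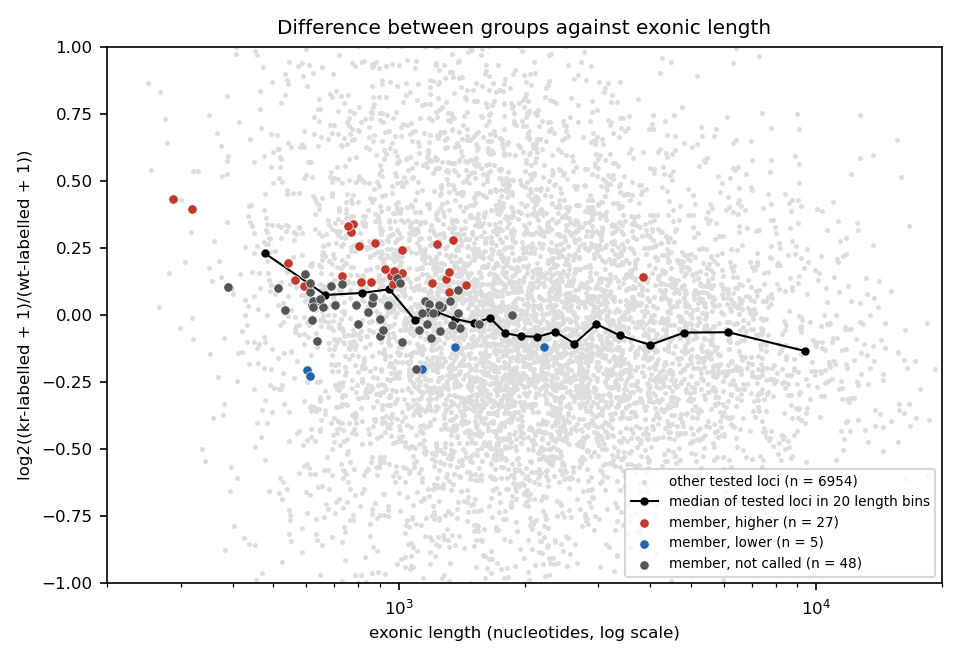
Log2 ratio of kr-labelled to wt-labelled FPKM (each with 1 added) against exonic length on a log scale. Light grey points are other tested loci (those beyond the plotted ratios of -1 and 1 are cut off), the black line joins the medians of tested loci in 20 length bins, and coloured points are the 80 abundant ribosomal protein genes by deposited call. Short loci have higher medians, and most called-higher ribosomal protein genes lie above the line.

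The peptide exit tunnel and its rim, where the new chain leaves the large subunit, were represented by 8 genes, of which 2 rose (25.0%) and 1 fell (12.5%). These shares were 30.0% and 5.56% over all tested members, and 15.3% and 54.2% over other tested loci of at least 500 FPKM. RpL39, a protein of 51 residues that lines the tunnel, went from 1269 FPKM in wt-labelled to 1715 FPKM in kr-labelled larvae. This 1.35-fold difference was the largest among the called members (0.000889 is its Cuffdiff q-value as the authors deposited it). RpL23A, the docking site of the signal recognition particle at the rim, rose from 1077 to 1145 FPKM (1.06-fold, q-value 0.0220 in the deposited table), the smallest called change. The RpL23A row also carries Uhg7, so the value is that of both genes, and 5 rows share its locus. RpL19, which sits at the rim and also bridges to the small subunit, fell from 1642 to 1513 FPKM (q-value 0.0105 in the deposited table). The remaining 5 genes of the list were not called. RpL4 and RpL17, which line the tunnel with RpL39, had 1286 and 1244 FPKM and 1106 and 1065 FPKM. RpL26 (1807 and 1858 FPKM), RpL31 (1698 and 1804 FPKM) and RpL35 (1281 and 1389 FPKM) belong to the rim.

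RpL39 lies on arm 2R beside RpL12. Their rows share the locus 24060378 to 24062431, and in the Release 6 annotation the genes run toward each other on opposite strands and overlap by 8 bases at their ends. RpL12, a protein at the base of the stalk, had 1496 and 1553 FPKM and stayed uncalled (deposited q-value 0.445). The whole exonic length of RpL39 is 288 nucleotides, the shortest of the members, and its log2 ratio of 0.43 was 0.20 after the correction for length.

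Of 5 genes of the catalytic centre and the 5S RNA particle, 3 rose and 1 fell. RpL10 rose from 2402 to 2887 FPKM (1.202-fold, q-value 0.000889 in the deposited table). RpL5 and RpL11 bind the 5S RNA together and join the ribosome as a unit. RpL5 rose from 1874 to 2069.8 FPKM (1.104-fold) and RpL11 from 1469 to 1638 FPKM (1.12-fold), with deposited q-values of 0.000889 and 0.00429. RpL3, which reaches into the catalytic centre and at 416 residues is the longest of the member proteins, fell from 1056 to 972 FPKM (1.09-fold, q-value 0.00235 in the deposited table). The RpL3 row also carries a small nucleolar RNA. RpL8, also at the centre, had 1538 and 1553 FPKM and was not called. The called genes of this small list thus went both ways, with the 5S pair in the same direction.

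The stalk recruits the translation factors that use GTP, and its paired acidic proteins went in opposite directions. RpLP1 rose 1.24-fold, from 1543 to 1915 FPKM, whereas RpLP2 fell 1.15-fold, from 2149 to 1863 FPKM, each at the smallest q-value that the authors' deposited table holds, 0.000889. The level of RpLP2 was above that of RpLP1 in wt-labelled larvae and below it in kr-labelled larvae. RpLP0, which anchors both, had 1269 and 1316 FPKM and was not called. RpLP1 and RpLP2 are encoded in loci that no other row shares, on arm 2L at 419952 to 420864 and on arm 2R at 16586129 to 16586732.

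RpL41 and RpL37A showed the next largest called differences of the large subunit after RpL39. RpL41 rose 1.32-fold, from 5587 to 7357 FPKM, and RpL37A, a zinc-binding protein, rose 1.27-fold, from 1572 to 1991 FPKM (both q-values 0.000889 in the deposited table). RpL41 has an exonic length of 320 nucleotides and lies inside a stretch of 2R (24891614 to 24928275) shared by 5 rows, with NaCP60E annotated over it on the opposite strand. After the correction for length the log2 ratio of RpL41 went from 0.40 to 0.17 and that of RpL37A from 0.34 to 0.26.

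The other large-subunit genes that rose did so by 1.08 to 1.198-fold. RpL30, which rose from 869 to 1041 FPKM, RpL15, from 1840.3 to 2179 FPKM, and RpL23, from 2098 to 2401 FPKM, had the larger changes of this group. RpL34b rose from 1066 to 1202 FPKM, RpL7A from 1382 to 1546 FPKM and RpL10Ab, the protein of the L1 stalk that moves spent tRNA out, from 1295 to 1433 FPKM. RpL37-1 (1779.8 to 1954 FPKM), RpL13 (1215 to 1322 FPKM) and RpL6 (946 to 1025 FPKM) completed the 17 higher large-subunit genes. In all of these 9 genes the deposited q-value was at most 0.05, with the highest, 0.0125, for RpL37-1.

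In the small subunit the largest called increases were those of RpS16, RpS3A and RpS14a. RpS16, whose tail reaches the tRNA in the decoding groove, went from 1151 to 1448 FPKM (1.26-fold). RpS3A, the single member on chromosome 4, went from 1702 to 2069.6 FPKM (1.22-fold), and RpS14a from 786 to 948 FPKM (1.21-fold). The q-value of each was 0.000889, the smallest that the authors' deposited table holds. RpS16 shares its locus on 2R (22605745 to 22607995) with 5 other rows and 5 annotated snoRNAs lie within the gene. RpS14a lies alone in its locus.

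Of 7 genes of the messenger RNA path and decoding site, 1 rose and 1 fell (14.3% each). These shares were 30.0% and 5.56% over all tested members, and 15.3% and 54.2% over other tested loci of at least 500 FPKM. RpS3, at the entry of the messenger RNA channel, fell 1.15-fold, from 1474 to 1282 FPKM (q-value 0.000889 in the deposited table). RpS15, a protein of the head whose tail reaches the decoding site, rose 1.09-fold, from 1373 to 1496 FPKM (q-value 0.0125 in the deposited table). RpS2 and RpS30, the neighbours of RpS3 at the channel entry, had 1638 and 1649.7 FPKM and 1465 and 1448 FPKM. Neither was called. RpS23 of the decoding centre (2220 and 2329.8 FPKM), RpS26 (1257 and 1257 FPKM) and sta (1311 and 1279 FPKM) were not called either, and RpS26 had the smallest difference of the abundant members.

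RpS18, a protein at the top of the head that contacts the large subunit, showed the largest decrease among the called members. It fell 1.17-fold, from 1725 to 1473 FPKM, with a q-value of 0.000889 in the deposited table. Its row also carries CG8908, so the value is that of both genes. The remaining higher small-subunit genes were RpS28b (1576 to 1765 FPKM), RpS27 (1029 to 1139 FPKM), RpS25 (1803 to 1967 FPKM), RpS20 (1515 to 1658 FPKM), RpS4 (1575 to 1703 FPKM) and RpS27A (1985 to 2138 FPKM), with folds of 1.08 to 1.12.

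RpS6, the substrate of S6 kinase in the TOR pathway, had 1451 FPKM in wt-labelled and 1369 FPKM in kr-labelled larvae and lay just outside the threshold (q-value 0.0514 in the deposited Cuffdiff table). RpL27 (1228 and 1353 FPKM, q-value 0.0519) and RpL22 (577 and 502 FPKM, q-value 0.0554) were likewise near it in the deposited table, and RpS27 (q-value 0.0407) was the called member closest to it. Over the 48 abundant members that were not called, 27 in the large and 21 in the small subunit, the median fold was 1.04, and RpL22 had the largest, 1.15. The remaining 10 uncalled members were those below 100 FPKM. In all, 13 uncalled members had an unadjusted deposited p-value under 0.05, with 8 higher and 5 lower in kr-labelled larvae. With the called genes included, 45 of the 90 tested members had such a p-value, against 1819 of all 7058 tested loci.

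RpL40 and RpS27A are made as fusions with ubiquitin, which is cut off after translation. RpS27A rose 1.08-fold (1985 to 2138 FPKM, q-value 0.0346 in the deposited table) in a row that also carries Ip259, and RpL40, with 1334 and 1361 FPKM, stayed uncalled in that table (q-value 0.729).

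The members with low values were almost all the less abundant gene of a pair of related genes. Of 13 members below a mean of 100 FPKM, 12 were such genes, and the exception was RpL38. The pairs include the 5 genes whose names end in -like, several of them assembly factors in yeast rather than alternative copies. In all 14 pairs examined, of which 2 hold RpS28b, the more abundant copy was the same in both groups. In 2 pairs the minor copy held over 10% of the pair's FPKM in wt-labelled larvae. RpL34a held 25.8% of the sum with RpL34b in wt-labelled and 24.2% in kr-labelled larvae, and RpS14b held 18.4% and 17.2% of the sum with RpS14a. RpS14a and RpS14b stand in tandem on the X chromosome, 220 bases apart, and encode proteins of 151 residues each. Fragments from near-identical copies can be divided wrongly, so the split within such pairs is uncertain.

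**Figure D4:**
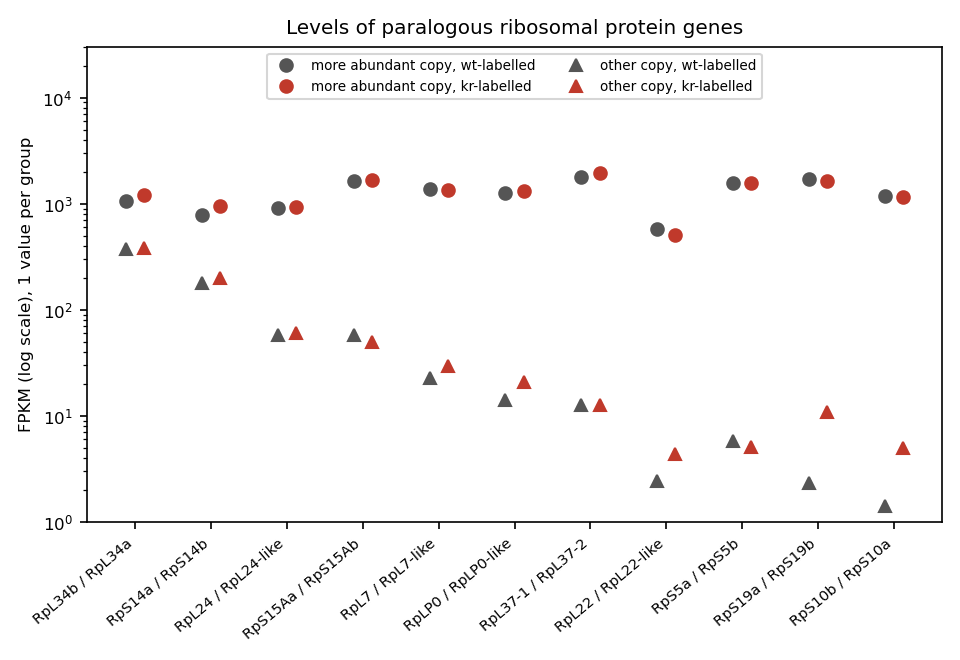
FPKM on a log scale of the 11 pairs of paralogous genes with both copies tested. Circles are the more abundant and triangles the other copy, grey for wt-labelled and red for kr-labelled larvae, 1 value per group. The circles lie near or above 500 FPKM throughout, and the triangles run from 384 FPKM for RpL34a in kr-labelled down to 1.41 FPKM for RpS10a in wt-labelled larvae.

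Several minor copies are known from the fly germline. RpS19b was listed at 2.31 FPKM in wt-labelled and 10.9 FPKM in kr-labelled larvae, RpS10a at 1.41 and 4.92 FPKM, RpL22-like at 2.45 and 4.39 FPKM and RpS5b at 5.82 and 5.04 FPKM. None of the 4 was called, and the q-value of RpS19b, at 4.73-fold the largest fold of any member, was 0.481 in that deposited table. Their main copies RpS19a (1715 and 1647 FPKM), RpS10b (1170 and 1144 FPKM), RpL22 and RpS5a (1553 and 1563 FPKM) were not called either. In the same larvae the testis transcripts Mst87F (9.94 and 33.5 FPKM) and Mst84Db (17.9 and 30.1 FPKM) were not called. The other 9 listed germline and testis markers were not tested, with the highest value at 2.51 FPKM (vas, wt-labelled). Among them vas, aub, bam, sa and topi had the lower value in kr-labelled larvae, and aly, can and dj the higher one. In each group 10 of the 11 germline and testis markers were above 0. Whether the low values of these copies moved with the amount of germline was not tested.

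Members related to assembly factors of yeast were low as well. RpL24-like, known in yeast as a factor replaced by RpL24 late in assembly, had 57.7 and 60.8 FPKM, and RpLP0-like, related to a yeast factor replaced by RpLP0, had 13.97 and 20.9 FPKM. RpL7-like had 22.5 and 29.7 FPKM in a row with CG34164. RpL37-2 (12.7 and 12.7 FPKM) and RpS15Ab (58.3 and 49.2 FPKM) were the minor copies of RpL37-1 and RpS15Aa (1620.3 and 1664 FPKM). None of these low members was called in the deposited table, and 8 of the 10 tested members below 100 FPKM had the higher value in kr-labelled larvae.

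RpL38 was the one gene without a second copy on the list of pairs that stayed below 100 FPKM. It was listed at 21.0 FPKM in wt-labelled and 56.4 FPKM in kr-labelled larvae, against a median above 1400 FPKM for the abundant members. The 2.69-fold difference stayed uncalled (deposited q-value 0.351). RpL38 encodes a protein of 70 residues and lies on 2R at 4515388 to 4516458, in a locus that no other row shares. Its annotated exons span 1013 nucleotides. No other value in the table checks so low a level, so it is given as listed and is uncertain as a measure of the gene's transcript.

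Ribosomal protein genes that neighbour each other in the genome did not always share a call. RpS15 and RpLP2 lie 14898 bases apart on 2R, and RpS15 rose while RpLP2 fell. RpS25 and RpL3 lie 5606 bases apart on 3R, and RpS25 rose from 1803 to 1967 FPKM while RpL3 fell. RpS12 and RpS4 lie 16993 bases apart on 3L, where RpS4 rose and RpS12, with 1068 and 1161 FPKM, was not called. These and the RpL12 to RpL39 and RpS14a to RpS14b pairs are all the members whose genes lie within 20000 bases of each other. In the RpS12 to RpS4, RpL12 to RpL39 and RpS14a to RpS14b pairs both genes had the higher value in kr-labelled larvae. Called-higher genes were spread over the arms, with 6 of 18 tested members on 2L, 6 of 21 on 2R, 5 of 14 on 3L, 5 of 21 on 3R, 4 of 15 on X and the 1 member on chromosome 4. Called-lower genes were on 2R (3) and 3R (2). Calls over all tested loci were not counted by arm, so these counts have no background to be read against.

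Ribosomal protein genes are short and compact, and many host small nucleolar RNAs that guide the modification of ribosomal RNA. In the Release 6 annotation 29 of the 93 members had at least 1 snoRNA within the gene on the same strand, with 14 in RpS5a. Of these 29 hosts 11 rose (37.9%) and 1 fell (3.45%), with a median log2 ratio of 0.09. Of the 61 tested members without one 16 rose (26.2%) and 4 fell (6.56%), with a median of 0.06. Over all tested members these shares were 30.0% and 5.56%, and over all tested loci 4.32% and 8.73%. The split by hosts was not tested. The median annotated 5′ untranslated region was 70.5 nucleotides in the members and 120 over 13986 coding genes. Across the 80 abundant members the ratio had a Spearman's rho of -0.349 with protein length, -0.216 with exonic length and 0.117 with mean FPKM, as descriptions. With the correction for length, rho was -0.04 for protein length and 0.231 for exonic length, so the correction reversed the sign of the trend with exonic length among the members and did not bring it to 0.

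Members were also counted by whether other rows share their coordinates, a split that was not tested. Of 46 tested members in shared loci 17 rose (37.0%) and 2 fell (4.35%), and of 44 in unshared loci 10 rose (22.7%) and 3 fell (6.82%). The median log2 ratios were 0.10 and 0.04. A coding gene on the opposite strand overlapped 22 of the 93 members, among them 9 of the 27 that rose. Whether counting used strand is not given in the sources used here, so fragments of such partners cannot be told apart.

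**Figure D5:**
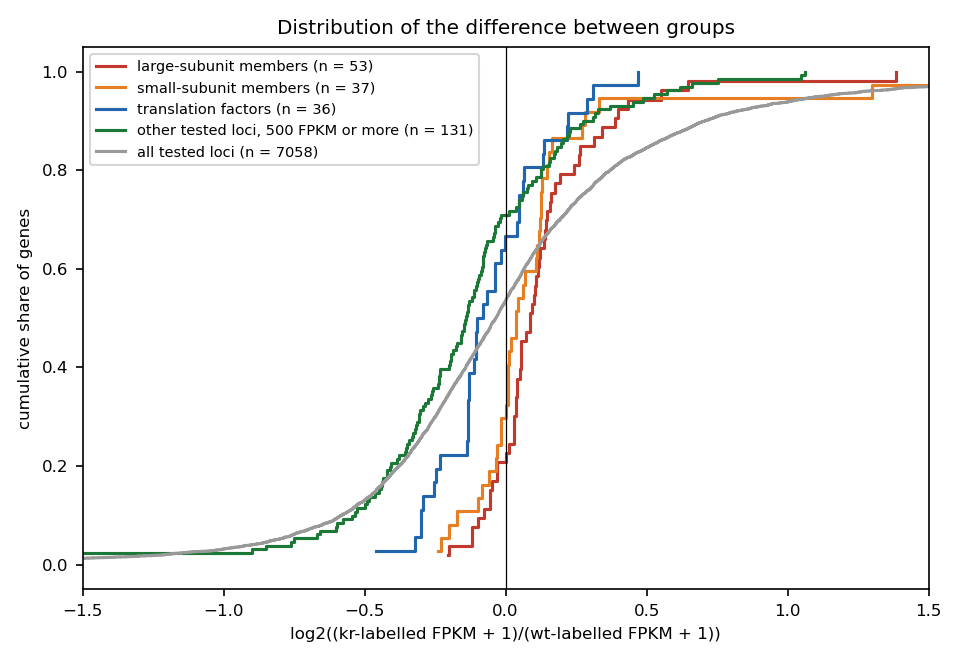
Cumulative share of genes against the log2 ratio of kr-labelled to wt-labelled FPKM (each with 1 added) for the large-subunit and small-subunit genes, translation factors, other tested loci of at least 500 FPKM and all tested loci. The curves of both subunits are steep and lie mostly to the right of 0, with medians of 0.09 and 0.04, and that of the translation factors lies mostly to the left, with a median of -0.09. The plotted range ends at -1.5 and 1.5.

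Translation factors were counted beside the ribosomal proteins. Of 36 tested translation factor genes 1 rose (2.78%) and 11 fell (30.6%), with a median log2 ratio of -0.09 and a median level of 96.0 FPKM in wt-labelled larvae. Of all tested loci 4.32% were called higher and 8.73% lower, and of the 588 tested loci outside the ribosomal proteins with at least 100 FPKM 11.7% were higher and 38.8% lower. Of the 4 listed genes above 1000 FPKM, 3 fell and 1 rose. The elongation factor genes eEF1alpha1 (3904 to 3626 FPKM) and eEF2 (1587 to 1448 FPKM) fell. Rack1, a scaffold protein bound to the small subunit, fell from 1216 to 1109.5 FPKM (1.096-fold, q-value 0.000889 in the deposited table). The largest decreases were those of eIF4H1 (25.9 to 18.6 FPKM, 1.39-fold), eIF3m (129 to 103 FPKM, 1.25-fold) and eIF5 (65.6 to 53.1 FPKM, 1.24-fold). The gene that rose was eEF5 (1265 to 1566 FPKM, 1.24-fold). After the correction for length the median of the translation factors was -0.05.

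Genes that build the ribosome were mostly not called, as were 6137 of all 7058 tested loci. Of 34 tested ribosome biogenesis genes 0 rose and 1 fell (2.94%) in the authors' deposited Cuffdiff table, against 4.32% and 8.73% of all tested loci. Their unadjusted p-value was under 0.05 in 3 of the 34 genes, against 1819 of all 7058 tested loci, and their median log2 ratio was -0.03. The gene that fell was Nlp (nucleoplasmin, 140.01 to 112 FPKM, 1.25-fold). Myc, a transcription factor that drives ribosome production, had 9.14 and 8.71 FPKM and the fibrillarin gene Fib 28.5 and 31.2 FPKM. The median level of this list was 9.39 FPKM in wt-labelled larvae. Of 71 tested mitochondrial ribosomal protein genes 2 rose (2.82%, against 4.32% of all tested loci) and 0 fell, with 7 at an unadjusted p-value under 0.05 in that table. The 2 that rose were mRpS22 (14.9 to 25.7 FPKM, 1.73-fold) and mRpS9 (25.5 to 39.9 FPKM, 1.56-fold). The median log2 ratio of the mitochondrial list was 0.22, at a median level of 15.3 FPKM in wt-labelled larvae, and 0.12 after the correction for length.

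FPKM is a relative measure, and the marker lists of other tissues differed in direction in the same libraries. Among all tested loci 4.32% were called higher and 8.73% lower. Among the 131 tested loci outside the ribosomal proteins with at least 500 FPKM these shares were 15.3% and 54.2%. Of 18 muscle markers 14 fell (77.8%) and 0 rose, and their share of the summed FPKM went from 3.21% to 2.75%. Of 7 fat body and serum protein markers 6 fell (85.7%) and 0 rose, and their share went from 4.15% to 3.35%. Of 8 midgut markers 3 rose and 3 fell (37.5% each, share 1.41% in both groups). Of 9 salivary gland markers 2 rose and 2 fell (22.2% each, share 0.578% and 0.586%). Of 5 tested markers of epidermis and cuticle 3 fell (60.0%, near the 54.2% of the abundant loci) and 0 rose (share 7.46% and 7.21%). Of 6 tested haemocyte markers 3 fell (50.0%) and 0 rose. Of 7 tested markers of imaginal discs and dividing cells 1 rose (14.3%) and 0 fell. The summed FPKM over all loci was 566151 in wt-labelled and 543224 in kr-labelled larvae. The part of these shifts in the ribosomal protein values was not tested.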

How the data were processed

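Polyadenylated RNA from whole larvae was sequenced in 4 libraries, 2 per group. TopHat2, Cufflinks and Cuffdiff were used per the submitters' processing notes. Their versions and settings, the build and the annotation are not given in the sources used here. FPKM values were made by the authors with Cuffdiff, 1 per group. The log2 fold change, test statistic (a score), p-value and q-value per locus are also the authors' deposited values, and the deposited q-value equals a Benjamini-Hochberg adjustment over the 7058 tested loci to within 5.29e-07. The smallest deposited p-value is 5e-05, shared by many loci. No count or depth is given, so no interval or replicate test could be computed. The labels do not say whether libraries came from separate cultures, so the p-values may measure technical spread.

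Accessions were matched to NCBI Release 6 symbols (30273 of 30529, 99.2%), and all 93 members overlapped their Release 6 position in Ensembl release 115, which gave exonic lengths, strands and snoRNAs. Coordinates are the deposited ones with a 1-based start. Ratios use a pseudocount of 1, and folds are plain FPKM ratios. For the length correction, the median ratio of tested loci in 20 bins of exonic length was subtracted, taking the longest gene of a row. Exonic length counts the merged exons of all transcripts of a gene, not 1 transcript. The correction was run on simulated ratios with a smooth trend in length and shifts planted in randomly chosen loci. That run does not cover genes gathered at short lengths, as the members are. Every called member, paralog, untested member, extreme member and role-list member was to be named. Members, lists and alternatives were chosen with earlier results of these data known. A planned promoter motif search was not run. Computation used scipy 1.17.1, pandas 2.3.3 and numpy 2.4.6 under Python 3.11.15, and plots matplotlib 3.10.9.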

Additional observations from a re-analysis of the deposited data

How the results depend on the processing

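Where the log2 ratio also had to reach 0.25 in size, 9 called members were higher and 0 lower, against 27 and 5. Only rows in unshared loci gave 10 higher and 3 lower, and only rows with 1 symbol gave 25 higher and 3 lower, in both cases with fewer genes counted. A q-value of at most 0.01 gave 20 and 4, and the counts with a mean of at least 10 FPKM or without -like symbols were 27 and 5. Counting the called members by the sign of the length-corrected ratio, an alternative chosen after seeing the data, gave 25 and 7, and after scaling to 1 total, also chosen later, 27 and 5. RpL23 and RpS20 changed sign with the length correction, which depends on where the length bins are cut. The median log2 ratio stayed between 0.02 and 0.15 for the large subunit under 10 alternatives. That of the small subunit was -0.0025 after the correction for exonic length, and between 0.01 and 0.10 otherwise. Without the 20 most abundant other loci the members held 26.5% (wt-labelled) and 28.9% (kr-labelled) of the summed FPKM, and rows with 1 symbol held 19.3% and 21.6%. No paired analysis was possible because the deposited table holds 1 value per group, and for the same reason no library could be left out.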
